A study of Mus musculus with 23 samples.

Results

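The F1 males of the cross between the mouse strains B6 and BALB/C were compared with inbred B6 males, to show what a set of BALB/C chromosomes beside a B6 set went along with in juvenile germ cells. The F1s were chosen by the genotype given for each array, and they comprised 6 arrays of B6xBALB/C and 3 arrays of BALB/CxB6, which were set against 3 arrays of B6. These are 12 of the 23 arrays of a study of mouse crosses, and the study also holds PWD, PWDxPWK and both crosses of B6 with PWD. Spermatogenic cells were isolated from testes of males aged 14.5 days, the cells of 4 testes were pooled for each array, and total RNA was hybridized to Affymetrix Mouse Gene 1.0 ST arrays. The names give the mother first by convention, so B6xBALB/C males carry a B6 X and a BALB/C Y, and BALB/CxB6 males carry a BALB/C X and a B6 Y. Both F1s carry 1 BALB/C set and 1 B6 set of autosomes, while B6 males carry B6 chromosomes only.

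Both strains are classical laboratory strains of largely Mus musculus domesticus origin, and their F1s are fertile. An F1 differs from an inbred parent in having alleles of the other strain, and in being heterozygous wherever the strains differ, which is the usual setting of hybrid vigour, the better growth or fertility of crosses between inbred lines. Inbred BALB/C arrays were not analysed here, so an effect of BALB/C alleles and an effect of heterozygosity cannot be told apart in these samples. A testis of this age contains spermatogonia, which divide by mitosis, and spermatocytes in meiosis, of which the pachytene ones are the most advanced. All values below are log2 expression values of the deposited table, a difference of 1 is a doubling, and each pool counts as 1 replicate. Nothing in the labels ties the pools to different litters, and the p-values reflect the variation among pools alone.

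The arrays differed in how many late meiotic transcripts they held, and 1 of them stood apart from its group. In a principal component analysis of the 12 arrays, the leading component held 41.6% of the variance, and its scores in B6xBALB/C were 24.1, 27.6, 18.6, -1.6, 18.5 and -24.4 for replicates 1 to 6. The scores were -16.0, -10.6 and -10.6 in BALB/CxB6 and -11.9, -13.9 and 0.3 in B6. B6xBALB/C replicate 6 thus lay at the far end from replicates 1, 2, 3 and 5 of its own group, it correlated with BALB/CxB6 replicate 1 at 0.992 over the 14745 genes, and with replicate 2 of its own group at 0.954, the lowest of all pairs of the 12 arrays. A score over 27 autosomal genes of pachytene spermatocytes, the mean log2 level relative to all 23 arrays, was likewise high in 4 arrays of B6xBALB/C and lowest in replicate 6: it ran from 0.661 to 0.837 in replicates 1, 2, 3 and 5 of B6xBALB/C and was 0.281 in replicate 4 and -0.529 in replicate 6, against -0.252, -0.28 and -0.194 in BALB/CxB6 and 0.067, 0.041 and 0.352 in B6. In pools of this kind, fewer cells of a type and less RNA per cell cannot be told apart. The second component held 18.7% of the variance, and its scores were lower in all 9 F1 arrays, at -27.1 to 6.84, than in the 3 B6 arrays, at 8.34 to 16.0.

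**Figure D1:**
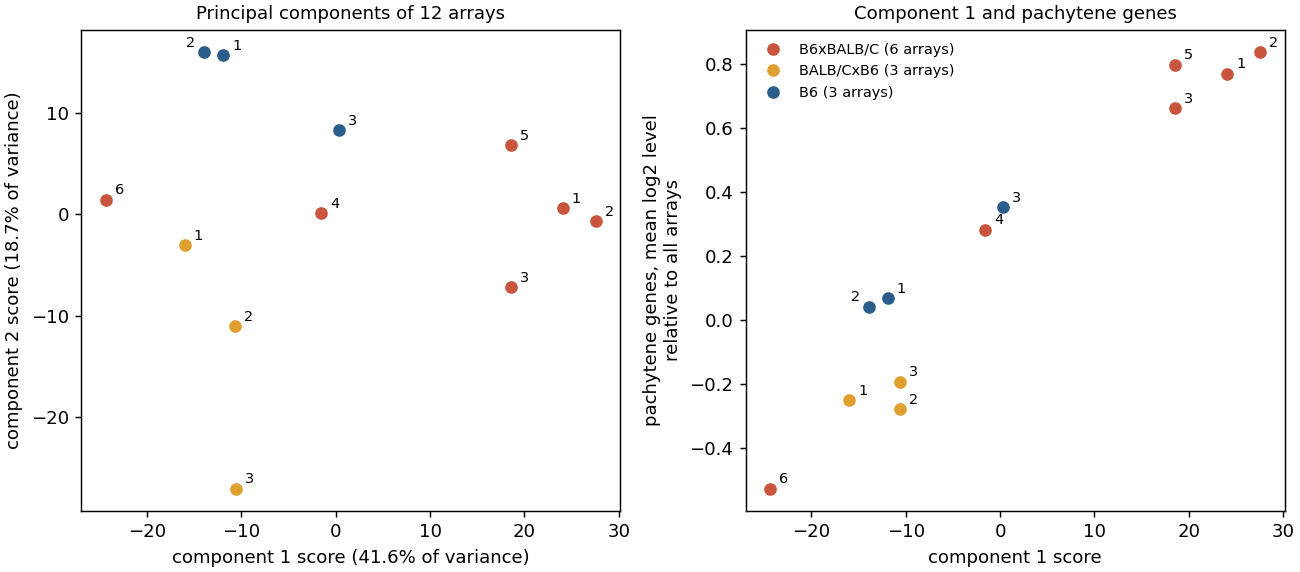
Left, scores of the 12 arrays on the leading components (component 1 with 41.6% and component 2 with 18.7% of the variance), a point per array, labelled with its replicate number. Right, component 1 against the score of 27 pachytene genes, where B6xBALB/C replicate 6 is lowest on both axes at -24.4 and -0.529.

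Against B6, the F1s differed in 665 of 14745 genes, with the mean of the 2 F1 groups taken as 1 value (limma, Benjamini-Hochberg adjusted p under 0.05, which is 4.51% of genes). Of these, 363 were higher (2.46%) and 302 lower (2.05%), and 3102 genes had an unadjusted p under 0.05 (21.0%). Most differences were small. The median rise was 0.43 and the median fall was -0.47 log2 units, 426 of the called genes changed by less than 0.5, and 11 rose and 2 fell by at least 1. In 820 genes (5.56%) all 9 F1 arrays lay on the same side of all 3 B6 arrays, above them in 2.6% and below them in 2.96%, and 445 genes (3.02%) were both separate and called. The number of calls hung on single arrays: it was 188 without B6 replicate 1, 246 without B6 replicate 2, 440 without B6 replicate 3, 347 without BALB/CxB6 replicate 2, 315 without BALB/CxB6 replicate 3, 1032 without BALB/CxB6 replicate 1 and 1337 without B6xBALB/C replicate 6. Without B6xBALB/C replicate 4, whose pachytene score also lay below the rest, it was 623. With each of the 12 arrays left out in turn, 87 genes were called every time, 39 of them higher and 48 lower.

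The largest rises were in a protease inhibitor, a lysosomal phospholipase-like protein, an antigen-presentation gene and a vitamin-cleaving enzyme. The 12 largest rises and 12 largest falls were taken only from called genes whose F1 and B6 arrays did not overlap. Their lack of overlap is therefore given by the choice and is no added support. Serpina3a, a member of the serpin family of protease inhibitors on chromosome 12, had 8.08, 8.38 and 8.78 (lowest, median and highest) in B6xBALB/C and 8.52, 8.42 and 8.63 in BALB/CxB6, against 6.11, 5.74 and 6.05 in B6. All 9 F1 arrays lay well above the B6 arrays, and the difference was 2.50 log2 units (SE 0.16, adjusted p = 2.71e-09). The serpin A3 genes of the mouse form a cluster of near-identical copies, so the signal of this probe set may be shared with its neighbours.

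Plbd1, a lysosomal protein related to phospholipase B, had 7.46, 7.66 and 8.16 in B6xBALB/C and 8.12, 7.58 and 8.14 in BALB/CxB6, against 6.00, 6.03 and 5.78 in B6. Cd74, the invariant chain that chaperones class II histocompatibility molecules, had 6.55, 7.08 and 7.42 in B6xBALB/C and 7.42, 7.13 and 7.36 in BALB/CxB6, against 5.11, 5.35 and 5.59 in B6. Vnn1, a pantetheinase that releases pantothenic acid, had 7.91, 8.03 and 8.24 in B6xBALB/C and 8.46, 7.87 and 8.41 in BALB/CxB6, against 6.92, 6.81 and 6.89 in B6. In all of them the F1 and B6 arrays were separate. The differences were 1.89 (SE 0.13, adjusted p = 4.86e-09) for Plbd1, 1.80 (SE 0.15, adjusted p = 1.86e-07) for Cd74 and 1.27 (SE 0.12, adjusted p = 7.53e-07) for Vnn1. These 4 calls held without each array in turn.

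Other large rises were found in genes of spermatogonia and meiotic entry, described further on, in the adhesion protein Mpzl2 (1.03) and in Depdc7 (1.10). Depdc7 had 6.44, 6.93 and 7.01 in B6xBALB/C and 6.96, 7.24 and 7.29 in BALB/CxB6, against 5.93, 5.70 and 6.05 in B6, without overlap. Smdt1, a subunit of the mitochondrial calcium uniporter, rose by 0.87 (adjusted p = 0.00836), and the histone gene H4f16, whose copies elsewhere in the genome encode the same protein, by 1.04 (adjusted p = 0.0055). The box C/D small nucleolar RNAs Snord47 and Snord82, a class of RNAs that guides methylation of other RNAs, rose by 1.20 (adjusted p = 0.0244) and 1.14 (adjusted p = 0.00907). A further RNA of this class, Snord53, fell by 0.85 (adjusted p = 0.000759). The calls on Smdt1 (adjusted p = 0.101), H4f16 (adjusted p = 0.0653) and Snord82 (adjusted p = 0.0935) were lost without B6 replicate 1, and that on Snord47 was lost without each of the B6 replicates and without BALB/CxB6 replicate 2 or 3, at adjusted p of 0.0546 to 0.107.

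**Figure D2:**
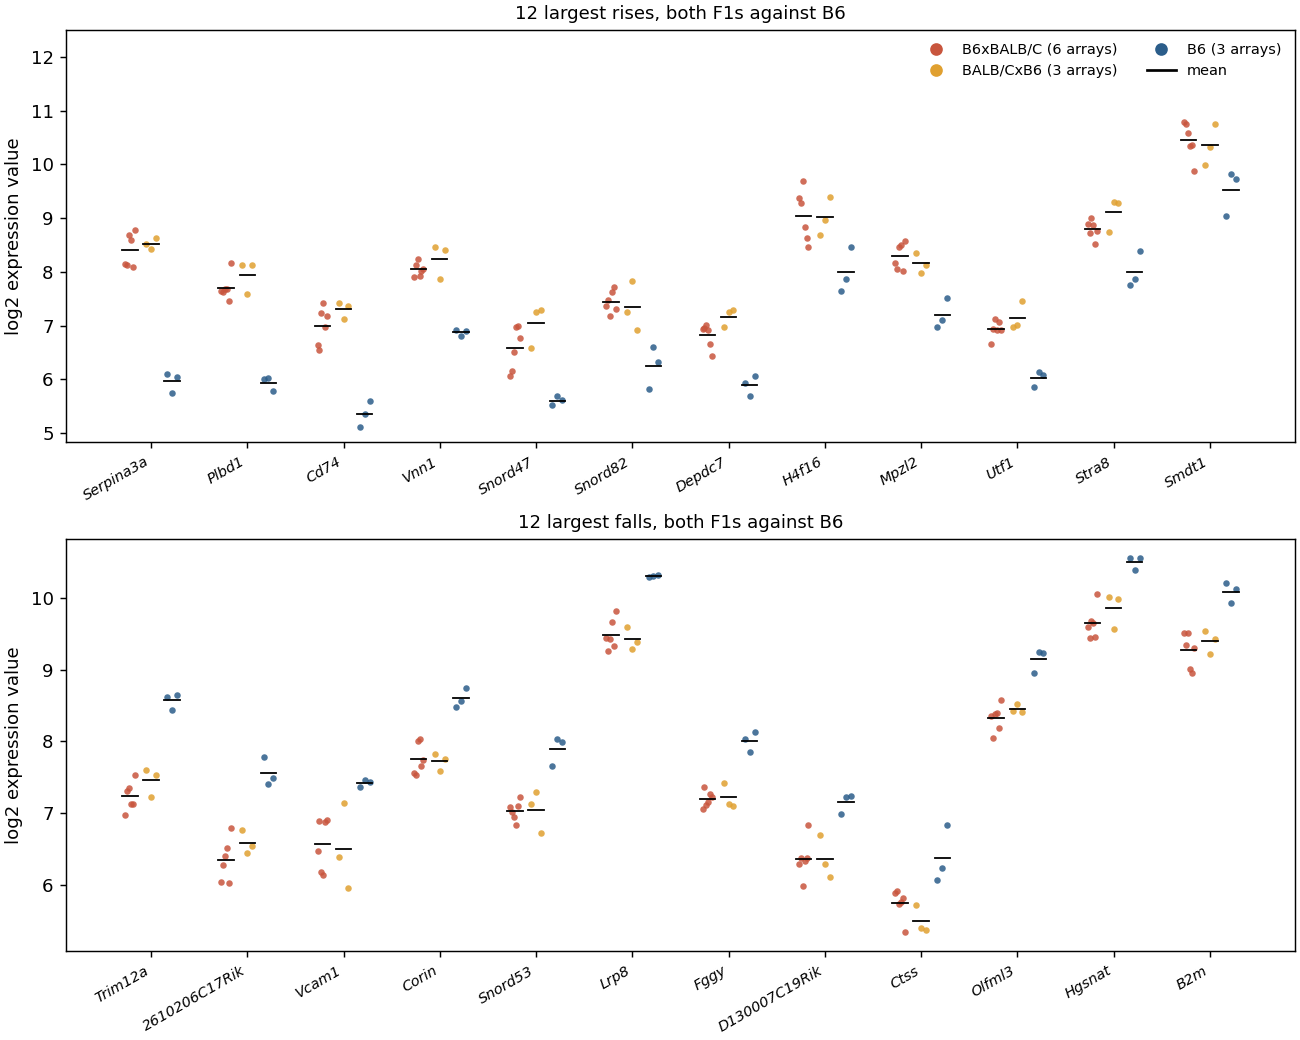
Log2 expression value of the 12 genes with the largest rises (top) and the 12 with the largest falls (bottom) among genes past the test with separate F1 and B6 arrays, a point per array and a bar at each group mean. For Serpina3a the F1 arrays lie at 8.08 to 8.78 and the B6 arrays at 5.74 to 6.11, and for Trim12a at 6.98 to 7.60 and at 8.44 to 8.65.

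The largest fall was in Trim12a, a member of the TRIM family near the mouse relatives of the antiviral factor TRIM5. It had 6.98, 7.21 and 7.53 in B6xBALB/C and 7.60, 7.23 and 7.53 in BALB/CxB6, against 8.62, 8.44 and 8.65 in B6, and fell by 1.23 (SE 0.15, adjusted p = 5.71e-05). The F1 arrays did not overlap the B6 arrays, as the choice of the largest falls required. In PWD, the strain of another subspecies, the same probe set read 4.14 ± 0.23 (SD, n = 3). Trim12a has close relatives on chromosome 7, and whether its probes match both strains' alleles was not tested, here or for any other gene.

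Lrp8, a lipoprotein receptor, had 9.26, 9.43 and 9.81 in B6xBALB/C and 9.59, 9.28 and 9.39 in BALB/CxB6, against 10.29, 10.31 and 10.31 in B6, and the difference was -0.85 (SE 0.11, adjusted p = 5.71e-05). Fggy, a carbohydrate kinase, had 7.06, 7.18 and 7.36 in B6xBALB/C and 7.42, 7.13 and 7.10 in BALB/CxB6, against 8.03, 7.85 and 8.13 in B6, and the difference was -0.79 (SE 0.10, adjusted p = 5.18e-05). Corin, a membrane protease that activates natriuretic peptides, had 7.53, 7.70 and 8.03 in B6xBALB/C and 7.83, 7.58 and 7.75 in BALB/CxB6, against 8.48, 8.56 and 8.75 in B6, and the difference was -0.86 (SE 0.12, adjusted p = 0.000287). In each of them all F1 arrays lay below all B6 arrays, as the choice of these genes required, and both F1 directions gave nearly the same mean. The lysosomal enzyme Hgsnat, which acetylates heparan sulfate (-0.75), the secreted matrix protein Olfml3 (-0.75) and the unannotated transcripts 2610206C17Rik (-1.10) and D130007C19Rik (-0.78) fell likewise. Ctss, the lysosomal protease that cuts the invariant chain, fell by 0.76, a call that was lost without B6 replicate 3 (adjusted p = 0.0882). Vcam1, an adhesion protein of vessels and of Leydig cells, fell by 0.88, a call lost without B6 replicate 1 (adjusted p = 0.0778), 2 (0.0798) or 3 (0.0587) and without BALB/CxB6 replicate 3 (0.053).

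Genes of antigen presentation changed both upward and downward, with rises in peptide supply genes and in Cd74 and falls in B2m and H2-Q10. Class I molecules show peptides cut by the proteasome, which the transporter of Tap1 and Tap2 carries to them, and they need the light chain encoded by B2m to reach the cell surface. Class II molecules are assembled on the invariant chain Cd74. B6 and BALB/C are known to carry different haplotypes of the histocompatibility region on chromosome 17 and different alleles of B2m. Of 31 listed genes, 23 were on the array and 17 passed the filter on dim signal. Of these, 5 rose and 2 fell, beside 2.46% and 2.05% of all genes, and the median of the 17 was 0.02 (-0.005 to 0.071 under the other scalings) against 0.01 over all genes.

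The transporter and immunoproteasome genes rose together. Tap1 had 7.16, 7.27 and 7.47 in B6xBALB/C and 7.30, 7.15 and 7.29 in BALB/CxB6, against 6.53, 6.55 and 6.48 in B6, a difference of 0.75 (SE 0.08, adjusted p = 3.19e-06). Tap2 had 7.16, 7.35 and 7.56 in B6xBALB/C and 7.39, 7.42 and 7.48 in BALB/CxB6, against 6.52, 6.70 and 6.38 in B6, a difference of 0.86 (SE 0.10, adjusted p = 1.9e-05). Psmb9, a catalytic subunit of the immunoproteasome that lies beside Tap1, had 7.22, 7.31 and 7.43 in B6xBALB/C and 7.17, 7.20 and 7.56 in BALB/CxB6, against 6.72, 6.92 and 6.74 in B6, a difference of 0.52 (SE 0.10, adjusted p = 0.00632). All 3 genes had separate F1 and B6 arrays, and their calls held without each array. Psmb8, the next immunoproteasome gene of the cluster, averaged 5.09 in B6, near the bottom of the range tested, and its difference of 0.27 did not pass (adjusted p = 0.178). In PWD these probe sets read 8.37 ± 0.10 for Tap1, 8.43 ± 0.15 for Tap2 and 8.28 ± 0.18 for Psmb9 (SD, n = 3).

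The light chain went the other way. B2m had 8.95, 9.32 and 9.51 in B6xBALB/C and 9.54, 9.22 and 9.42 in BALB/CxB6, against 10.21, 9.92 and 10.12 in B6. Every F1 array was below every B6 array, as its choice among the largest falls required, and the difference was -0.75 (SE 0.11, adjusted p = 0.000727). H2-Q10, a secreted class I heavy chain, had 6.46, 6.53 and 6.96 in B6xBALB/C and 6.59, 6.46 and 6.52 in BALB/CxB6, against 7.28, 7.15 and 7.17 in B6, and fell by 0.62 (adjusted p = 0.00814). H2-Q4, its neighbour in the same family, differed by 0.40 (adjusted p = 0.0426). H2-Q10 lost its call without B6 replicate 1 (adjusted p = 0.0595), and H2-Q4 lost it without each of the arrays but B6 replicate 3 and B6xBALB/C replicates 4 and 6, at adjusted p of 0.0564 to 0.239, and class I heavy chains are so alike that their probe sets may share transcripts. Unlike Cd74, the class II chains H2-Ab1 (0.09, adjusted p = 0.734), H2-Eb1 (-0.14, adjusted p = 0.418) and H2-DMa (-0.08, adjusted p = 0.806) did not pass the test.

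**Figure D3:**
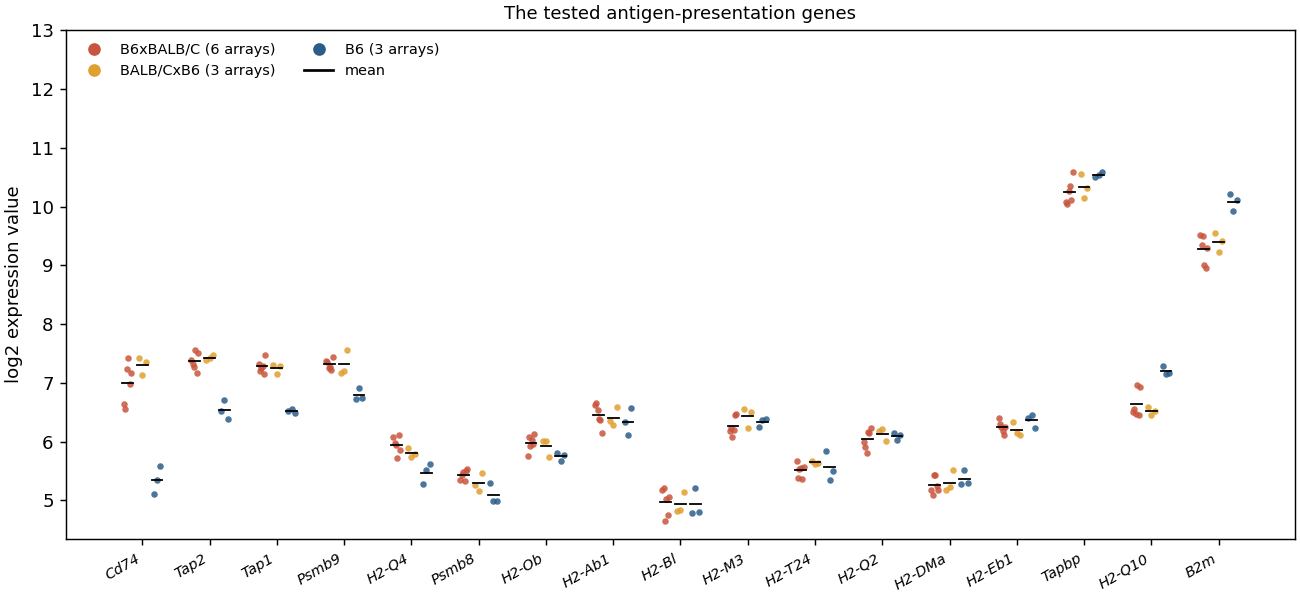
Log2 expression value of the 17 tested antigen-presentation genes, a point per array and a bar at each group mean, ordered by the difference between the F1s and B6. Cd74, Tap2, Tap1 and Psmb9 on the left have all F1 arrays above B6, and H2-Q10 and B2m on the right have all F1 arrays below.

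The promoters of genes at both ends of this pathway are shown because Tap1 and Psmb9, which start close together on opposite strands, both rose while B2m fell. The sequences are the 250 bases before each start in the RefSeq annotation of GRCm38.p6, a B6 genome, at chr17:34187306-34187555 for Tap1 and chr2:122147437-122147686 for B2m, both on the plus strand. Psmb9 starts on the other strand 226 bases from the start of Tap1, so the Tap1 window also holds the start of Psmb9. Capitals mark GAAA repeated after any 2 bases, the core of the element through which interferon factors act, and CCAAT, the box bound by the factor NF-Y, searched on both strands.
Tap1 promoter: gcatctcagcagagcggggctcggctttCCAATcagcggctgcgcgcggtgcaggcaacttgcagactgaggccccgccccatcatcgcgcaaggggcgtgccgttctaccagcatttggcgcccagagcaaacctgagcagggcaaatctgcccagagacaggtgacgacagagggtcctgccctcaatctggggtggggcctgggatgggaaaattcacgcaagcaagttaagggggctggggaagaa
B2m promoter: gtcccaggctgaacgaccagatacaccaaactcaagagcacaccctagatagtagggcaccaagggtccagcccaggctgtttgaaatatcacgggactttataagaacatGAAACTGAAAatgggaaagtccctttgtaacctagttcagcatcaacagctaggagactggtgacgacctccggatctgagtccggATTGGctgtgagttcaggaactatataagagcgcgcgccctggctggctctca
The Tap1 window held CCAAT 222 to 218 bases before the start of Tap1. The B2m window held the GAAA repeat 139 to 130 bases before the start, and CCAAT on the minus strand, read here as ATTGG, 53 to 49 bases before it. Of 32851 promoter windows of this length, 2.98% held the GAAA repeat and 33.8% held CCAAT. These are matches of letters in the B6 sequence, and the BALB/C sequence was not analysed here.

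Of 19 tested genes of a separate interferon-response list, 0 rose and 1 fell, beside 2.46% and 2.05% of all genes, with a median of -0.02. Oasl2, an interferon-induced relative of the oligoadenylate synthetases, had 7.33, 7.41 and 7.54 in B6xBALB/C and 7.46, 7.64 and 7.64 in BALB/CxB6, against 8.03, 7.96 and 8.10 in B6, and fell by 0.53 (adjusted p = 0.000778). Of 8 tested genes of innate immune clusters that vary between strains, Trim12a fell and Gbp3, an interferon-inducible GTPase, rose by 0.52 (adjusted p = 0.0477), a call lost without B6 replicate 1, B6 replicate 2 and 6 of the F1 arrays, at adjusted p of 0.0519 to 0.227. Among 7 tested genes known to vary between B6 and other strains, Wdfy1, a phosphoinositide-binding protein, rose by 0.35 (adjusted p = 0.0244), a call lost without B6 replicate 1 or 2 or BALB/CxB6 replicate 2 or 3, at 0.0552 to 0.172. Nnt, the mitochondrial transhydrogenase that is partly deleted in a B6 substrain, had 7.65, 7.84 and 8.10 in B6xBALB/C and 8.08, 7.99 and 7.97 in BALB/CxB6, against 7.82, 7.70 and 7.83 in B6. Its groups overlapped and its difference of 0.15 did not pass the test (adjusted p = 0.437), and the labels do not name the substrain. Pttg1 (-0.15), Entpd4 (-0.25), Apobec3 (0.11), Fv1 (-0.12) and Ahr (0.26) did not pass either.

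Several genes of spermatogonia and of entry into meiosis rose in the F1s. Of 21 tested spermatogonial genes 6 rose and 1 fell, beside 2.46% and 2.05% of all genes, their median was 0.12 against 0.01 over all genes, and 20 of the 21 had a positive difference against 51.2% of all genes, or 19 with quantile normalization or centring on autosomes. Utf1, a chromatin protein of undifferentiated spermatogonia, had 6.66, 6.93 and 7.11 in B6xBALB/C and 6.98, 7.02 and 7.45 in BALB/CxB6, against 5.85, 6.13 and 6.08 in B6, a difference of 1.02 (SE 0.15, adjusted p = 0.00074). Stra8, which retinoic acid induces and which germ cells need to begin meiosis, had 8.52, 8.82 and 9.0 in B6xBALB/C and 8.74, 9.29 and 9.29 in BALB/CxB6, against 7.76, 7.88 and 8.39 in B6, a difference of 0.94 (SE 0.13, adjusted p = 0.00034). Ret, the receptor through which GDNF maintains spermatogonial stem cells, had 7.79, 7.86 and 8.10 in B6xBALB/C and 7.89, 8.03 and 7.78 in BALB/CxB6, against 7.44, 7.41 and 7.31 in B6, a difference of 0.51 (SE 0.08, adjusted p = 0.00139). The F1 and B6 arrays were separate for all of them, which for Utf1 and Stra8 was part of how they were chosen. These 3 calls held without each array.

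The transcription factor Zbtb16 (0.47), the RNA-binding protein Lin28a (0.37) and the differentiation factor Sohlh2 (0.48) also rose. Kit, the receptor of differentiating spermatogonia, fell by 0.40, with 9.39, 9.52 and 9.90 in B6xBALB/C and 9.74, 9.90 and 9.49 in BALB/CxB6, against 10.18, 9.87 and 10.06 in B6. These 4 changes were smaller, and without B6 replicate 1 the count of rises was 3. Zbtb16 lost its call without B6 replicate 1 (adjusted p = 0.0515) or 2 (0.0941), Lin28a without B6 replicate 1 or 3 or BALB/CxB6 replicate 2 or 3 (0.061 to 0.128), and Sohlh2 and Kit without 9 arrays each, among them every B6 array, at 0.0523 to 0.225. Gfra1 (0.09), Id4 (0.09) and Etv5 (0.07), genes of the stem cell pool, did not pass the test.

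The promoter of Stra8 is shown because its rise was the largest among genes of meiotic entry. It is the stretch chr6:34920698-34920947 on the plus strand (RefSeq, GRCm38.p6), and capitals mark AGGTCA, core letters recognised by the retinoic acid receptors and other nuclear receptors.
Stra8 promoter: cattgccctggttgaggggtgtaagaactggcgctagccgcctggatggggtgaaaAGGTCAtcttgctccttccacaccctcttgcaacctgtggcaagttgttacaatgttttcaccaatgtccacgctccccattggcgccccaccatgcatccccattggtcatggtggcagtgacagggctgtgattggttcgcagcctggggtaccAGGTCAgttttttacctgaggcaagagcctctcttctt
AGGTCA stood 194 to 189 and 38 to 33 bases before the start, and 4607 of the 32851 windows held it on either strand.

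Some genes of the chromosome axis and of recombination rose as well. Of 17 tested genes of synapsis and cohesin, 4 rose and 0 fell, beside 2.46% and 2.05% of all genes, with a median of 0.27. Sycp3, the axis protein, had 9.37, 10.27 and 10.43 in B6xBALB/C and 9.81, 9.86 and 10.27 in BALB/CxB6, against 9.35, 9.05 and 9.40 in B6, a difference of 0.75 (SE 0.18, adjusted p = 0.0225). Replicate 6 of B6xBALB/C, the lowest F1 array, overlapped B6. Syce1 of the central element (0.53), the meiotic cohesin subunit Rad21l (0.52) and Meioc, which keeps germ cells in meiotic prophase (0.49), were the others. Of 18 tested recombination genes, Dmc1, the strand-exchange protein of meiosis (0.40, adjusted p = 0.0166), and Mei4, needed for double-strand breaks (0.48, adjusted p = 0.0226), rose, and the median was 0.34.

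These counts moved with single arrays of every group. Without B6 replicate 2, 0 genes of either list were called, and without B6 replicate 1 there was 1 call in each. Without BALB/CxB6 replicate 2 there were 2 calls in synapsis and 1 in recombination, without BALB/CxB6 replicate 1 there were 6 and 5, and without B6xBALB/C replicate 6 there were 7 and 9. The call on Sycp3 was also lost without BALB/CxB6 replicate 3 (adjusted p = 0.0567). All of these calls were rises, and the medians ran from 0.13 to 0.33 for synapsis and from 0.26 to 0.42 for recombination with an array left out. Pachytene genes had a median of 0.00 in the mean of the F1s. It came from medians of 0.29 in B6xBALB/C, where 26 of 28 were positive against 49.9% of all genes, and -0.29 in BALB/CxB6, where 7 were against 52.2%. There was 1 call among the 28 in the mean. That call was Cdkn3, a cell cycle phosphatase (0.47, adjusted p = 0.0331), and it was lost without any of the B6 arrays or BALB/CxB6 replicate 2 or 3 (0.0596 to 0.151). Without B6xBALB/C replicate 6 the median was 0.104 with 3 rises, and without BALB/CxB6 replicate 1 there were 2. Of 18 genes of the piRNA pathway and 12 of spermatids, 0 passed the test, with medians of 0.12 and -0.05, and the lowest p in each belonged to Mael (0.53, adjusted p = 0.0856) and Odf1 (-0.21, adjusted p = 0.223). A further 8 spermatid genes were too dim to test.

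**Figure D4:**
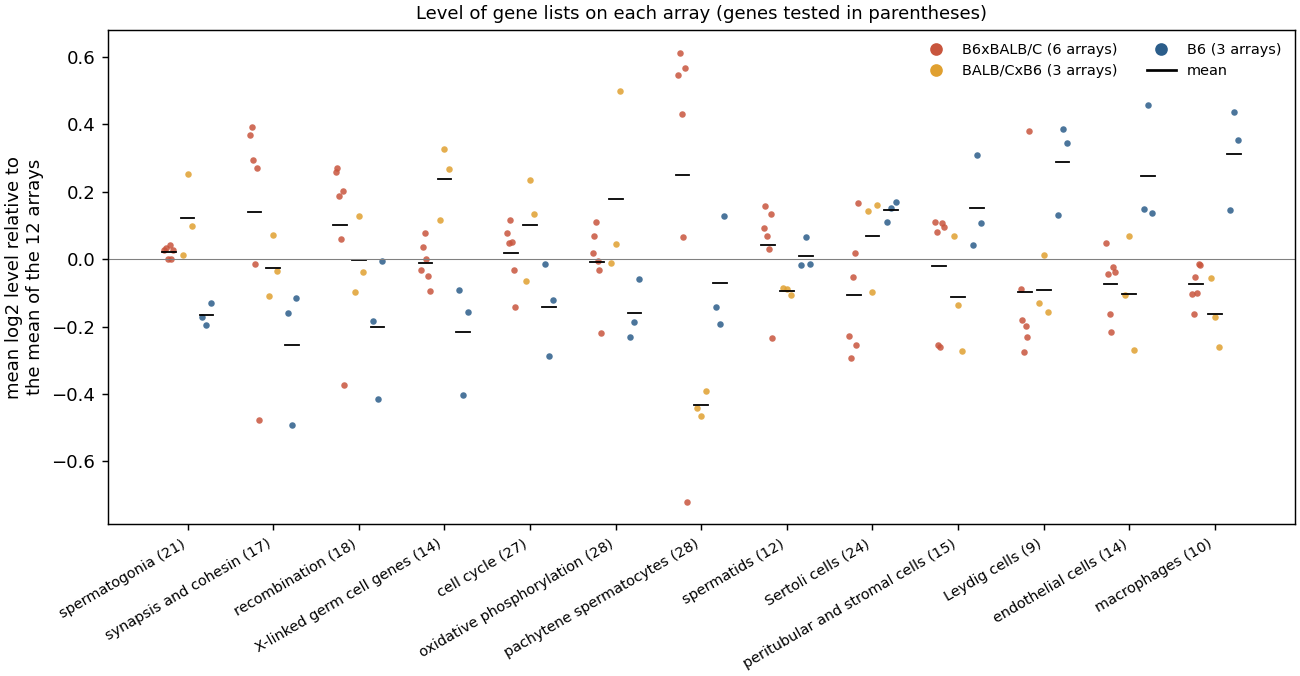
Mean log2 level of the tested genes of 13 lists on each array, relative to the mean of the 12 arrays, a point per array and a bar at each group mean. For spermatogonia the F1 arrays lie at 0.001 to 0.254 and the B6 arrays at -0.195 to -0.130, for macrophages at -0.261 to -0.014 and at 0.145 to 0.437, and the pachytene level spreads from -0.720 to 0.613 within B6xBALB/C.

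Some macrophage genes and single genes of other somatic cells fell in the F1s. Of 10 tested macrophage genes 5 fell and 0 rose, beside 2.05% and 2.46% of all genes. All 10 had a negative difference, with a median of -0.45, while 51.2% of all genes had a positive one. The complement gene C1qb had 5.59, 5.64 and 5.78 in B6xBALB/C and 5.47, 5.49 and 5.29 in BALB/CxB6, against 5.99, 6.29 and 6.21 in B6, a difference of -0.62 (SE 0.12, adjusted p = 0.00612), and the arrays did not overlap. Its partner C1qc (-0.59), the lysozyme gene Lyz2 (-0.59), Csf1r, the receptor macrophages need for survival (-0.52), and the chemokine receptor Cx3cr1 (-0.49) fell too. Among the 5 calls, that on C1qb alone held without each array. The count was 1 without B6 replicate 2, 2 without B6 replicate 3 or BALB/CxB6 replicate 3, and 3 without B6 replicate 1 or BALB/CxB6 replicate 2. A further 6 macrophage genes did not pass the filter on dim signal.

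Of all genes tested, 2.05% fell and 51.2% had a positive difference, and the lists that follow stand beside these shares. The single calls in the endothelial and stromal lists are not read as results about those lists. Of 14 endothelial genes all had a negative difference (median -0.31) and 1, the angiopoietin receptor Tek, fell (-0.56, adjusted p = 0.0292). Of 9 Leydig cell genes 3 fell, Vcam1, Cyp11a1, which makes pregnenolone (-0.78, adjusted p = 0.0336), and Hsd3b6, the steroid dehydrogenase of adult-type Leydig cells (-0.70, adjusted p = 0.0367). Of 15 stromal genes 1 fell, the growth factor receptor Pdgfra (-0.70, adjusted p = 0.0236), and of 24 Sertoli cell genes 0 passed the test, with a median of -0.14 and 2 positive differences, and the lowest p was that of Trf, the transferrin gene (-0.38, adjusted p = 0.0602). The calls in the endothelial, stromal and Leydig lists were all lost without B6 replicate 1, without B6 replicate 2 or without BALB/CxB6 replicate 3, and those in the Leydig list without B6 replicate 3 too, at adjusted p of 0.053 to 0.17. The mean macrophage level was -0.162 to -0.014 in B6xBALB/C and -0.261 to -0.056 in BALB/CxB6, against 0.145 to 0.437 in B6, and the mean endothelial level -0.215 to 0.048 and -0.269 to 0.068, against 0.138 to 0.458. The part of these cells in the other differences was not tested. Genes of somatic cells passed the filter on dim signal in these germ cell preparations. Signal from somatic RNA and background signal were not told apart, and a marker at 0 cannot be read from these values.

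A few genes of respiration and of the cell cycle rose by small amounts. Of 28 tested genes of oxidative phosphorylation 3 rose and 0 fell, beside 2.46% and 2.05% of all genes, 27 had a positive difference against 51.2% of all genes, or 24 or 25 under the other scalings, and the median was 0.19. Ndufa9, a subunit of respiratory complex I, had 9.12, 9.47 and 9.61 in B6xBALB/C and 9.33, 9.44 and 9.87 in BALB/CxB6, against 8.49, 8.94 and 9.12 in B6. The groups touched at 9.12, and the difference was 0.63 (SE 0.14, adjusted p = 0.0143). Ndufb5 of the same complex (0.57) and Cyc1 of complex III (0.38) were the others. All 3 calls were lost without B6 replicate 1, at adjusted p of 0.13 to 0.251, and 2 of them without B6 replicate 2 (0.0984 and 0.12) or BALB/CxB6 replicate 3 (0.0706 and 0.111). That on Ndufb5 was lost too without B6xBALB/C replicate 1, 2, 3 or 5 or BALB/CxB6 replicate 2 (0.055 to 0.0664), while 6 genes were called without BALB/CxB6 replicate 1 and 5 without B6xBALB/C replicate 6.

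Of 27 cell cycle genes 3 rose and 0 fell, beside the same 2.46% and 2.05%, with a median of 0.22 and 26 positive differences, or 25 under the other scalings. They were Mcm5 of the replicative helicase (0.47, adjusted p = 0.014) and the ribonucleotide reductase subunits Rrm2 (0.49, adjusted p = 0.0237) and Rrm1 (0.30, adjusted p = 0.0482), and all 3 calls were lost without B6 replicate 2, at 0.0542 to 0.235. The count was 1 without B6 replicate 3 or BALB/CxB6 replicate 2 or 3 and 5 without B6xBALB/C replicate 6. Mcm5 was lost without B6 replicate 1 (0.0991), and Rrm1 without each array but B6xBALB/C replicate 6 and BALB/CxB6 replicate 1 (0.0602 to 0.235) and under both other scalings.

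Genes of growth hormone and insulin-like growth factor signalling went down where they changed. Of 22 tested, 0 rose and 3 fell, beside 2.46% and 2.05% of all genes, the inhibitor Socs2 (-0.57), the insulin receptor Insr (-0.55) and the binding protein Igfbp6 (-0.41), with a median of -0.18, and 0 of these calls held without any 1 of the B6 arrays or BALB/CxB6 replicate 3, at adjusted p of 0.0579 to 0.208. There was 1 call without BALB/CxB6 replicate 2 and 6 without B6xBALB/C replicate 6. With 2.46% of all genes higher and 2.05% lower, the single calls in the lists that follow are not read as results about those lists. Single rises were found in Insig1, which restrains sterol synthesis (0.55, adjusted p = 0.0256), in Gsr, the glutathione reductase (0.36, adjusted p = 0.0244), and in Aldoc, an aldolase (0.47, adjusted p = 0.0364), among 18 cholesterol, 24 antioxidant and 14 glycolysis genes. Each of these calls was lost without B6 replicate 2 (adjusted p = 0.0677, 0.133 and 0.111) and without BALB/CxB6 replicate 3 (0.0655, 0.0609 and 0.0898). Insig1 (0.153) and Aldoc (0.236) were lost without B6 replicate 1 as well, Gsr without B6 replicate 3 (0.0681), and Aldoc without B6xBALB/C replicate 1, 2 or 3 or BALB/CxB6 replicate 2 (0.0507 to 0.0782). Among 21 chaperone genes, the chaperonin subunit Cct2 rose by 0.46 and Hspa8 fell by 0.32, and among 4 control genes Hprt, which is X-linked, rose by 0.41 (adjusted p = 0.041). Of 24 imprinted genes, Sgce, a dystrophin-associated sarcoglycan expressed from the father's allele, fell by 0.36 (adjusted p = 0.0183), and the median was -0.13. Without B6 replicate 1, the calls on Cct2 (adjusted p = 0.15), Hspa8 (0.139), Hprt (0.104) and Sgce (0.129) were lost. Those on Hspa8 and Hprt were lost without 7 other arrays each, at 0.0517 to 0.15, and that on Hprt under both other scalings.

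The 2 directions of the cross were also set against B6 separately. B6xBALB/C alone differed from B6 in 589 genes (3.99%, with 268 or 1.82% higher and 321 or 2.18% lower), and BALB/CxB6 alone in 256 (1.74%, with 154 or 1.04% higher and 102 or 0.692% lower). The 2 comparisons use the same B6 arrays. Of the 665 genes called in the mean of the F1s, 142 (0.963% of genes tested) passed the test in each direction alone with the same sign, 82 higher (0.556%) and 60 lower (0.407%). A further 262 passed in B6xBALB/C only, 92 in BALB/CxB6 only and 169 in neither alone, and 0 had differences of opposite sign. Whether a gene passed in 1 or both directions depended on 6 arrays in 1 and 3 in the other, so passing in only 1 is not a difference between them. By the test between the directions, which 0.441% of all genes passed, 4 of the 665 genes and 0 of the 142 differed, and the median size of the difference between directions was 0.11 among the 142 and 0.10 among all genes. The 665 were chosen for their mean, and the 142 for passing in both directions with the same sign, in these same arrays. This choice favours like signs and small differences between directions, so these counts are no separate check that the directions agree.

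The 142 genes include Serpina3a (2.44 in B6xBALB/C and 2.56 in BALB/CxB6), Plbd1 (1.77 and 2.01), Vnn1 (1.17 and 1.37), Utf1 (0.92 and 1.13), Stra8 (0.79 and 1.10), Tap1 (0.77 and 0.73) and Tap2 (0.83 and 0.89), and among the falls Trim12a (-1.34 and -1.12), Lrp8 (-0.81 and -0.88) and B2m (-0.81 and -0.69). The count of 142 was 351 without B6xBALB/C replicate 6 and 234 without BALB/CxB6 replicate 1, and it was 26 without BALB/CxB6 replicate 3, 42 without B6 replicate 1, 47 without BALB/CxB6 replicate 2, 64 without B6 replicate 2 and 89 without B6xBALB/C replicate 1. In all, 72 genes were called in the mean under every planned setting. Among them were Serpina3a, Vnn1, Depdc7, Stra8, Mpzl2, Tap1, Tap2, Psmb9, Ret, Taf7l, Trim12a, Corin, Lrp8, Fggy and B2m. A gene that was not tested in some setting cannot be in this count. Plbd1, Cd74 and Utf1 are not in it, and they passed in the mean under every alternative that tested them.

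The X chromosome sets the directions apart, since BALB/CxB6 males have a BALB/C X and B6xBALB/C males have the same X as B6. In the mean of the F1s, 32 of 474 X-linked genes were called, 18 higher and 14 lower, which is 6.75% against 4.45% of autosomal genes. In B6xBALB/C 25 were called (5.27% against 3.97%), 10 higher and 15 lower, and in BALB/CxB6 22 (4.64% against 1.64%), 14 higher and 8 lower. X-linked genes were thus called also where the X came from B6, at a share little above that of autosomal genes. The median X-linked difference was -0.076 in B6xBALB/C, 0.049 in BALB/CxB6 and -0.139 between the directions. For autosomal genes these medians were 0.002, 0.009 and -0.023. Whether the X-linked differences went with the meiotic content of the arrays was not tested.

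Klhl4, a kelch-family gene, had levels that went with the strain of the X. It had 5.44, 5.85 and 6.29 in B6xBALB/C and 4.83, 4.74 and 4.54 in BALB/CxB6, against 6.03, 5.86 and 6.20 in B6. The males with a BALB/C X were lower than all others, which gave a difference of 1.13 between the directions (B6xBALB/C minus BALB/CxB6, SE 0.19, adjusted p = 0.0164). Col4a6, a basement membrane collagen, had 5.95, 6.16 and 6.39 in B6xBALB/C and 5.41, 5.43 and 5.66 in BALB/CxB6, against 6.43, 6.42 and 6.18 in B6, a difference between directions of 0.69 (adjusted p = 0.0386). The transcript 4930595M18Rik went the other way, with 4.77, 4.95 and 5.22 in B6xBALB/C and 5.76, 5.72 and 5.77 in BALB/CxB6, against 4.92, 5.16 and 5.22 in B6 (difference -0.79, adjusted p = 0.00739). For these X-linked genes all 6 B6xBALB/C arrays, replicate 6 included, lay on the same side of the BALB/CxB6 arrays as B6. The genes were chosen for large differences in these same arrays, so this is no separate check of the labelled genotypes. Klhl4 in BALB/CxB6, and 4930595M18Rik in B6xBALB/C and B6, lay near or below 5.125, the mean below which genes were left out as dim. The sizes of their differences are therefore uncertain. The call on 4930595M18Rik was lost without BALB/CxB6 replicate 3 (adjusted p = 0.0615), and those on Klhl4 and Col4a6 between the directions were lost without BALB/CxB6 replicate 2 or 3, where 0 genes were called higher in B6xBALB/C. Without B6xBALB/C replicate 5, 1 gene was called higher, so at most 1 of the pair was kept. In BALB/CxB6 against B6, the falls of Klhl4 (-1.32, adjusted p = 0.00237) and Col4a6 (-0.84, adjusted p = 0.007) held without each array.

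Other X-linked genes passed the test as rises in both F1s. Taf7l, a germ cell subunit of the transcription factor TFIID, had 10.04, 10.13 and 10.32 in B6xBALB/C and 10.16, 10.44 and 10.48 in BALB/CxB6, against 9.74, 9.38 and 9.81 in B6, a difference of 0.61 (SE 0.11, adjusted p = 0.00403), and the arrays were separate. Taf9b, a related subunit (0.65), the transketolase-like gene Tktl1 (0.52) and the RNA-binding protein Fmr1 (0.39) rose too. Some calls in single directions were lost without 1 array. Taf7l was lost in B6xBALB/C without B6 replicate 2 (adjusted p = 0.112), and Taf9b in B6xBALB/C without B6 replicate 1 (0.0843) or 2 (0.0766) and in BALB/CxB6 without B6 replicate 1 or 2 or BALB/CxB6 replicate 2 or 3 (0.0638 to 0.0899). Of 14 tested germ cell genes of the X, 3 rose in the mean (Taf7l, Tktl1 and Fmr1) and 0 fell, beside 2.46% and 2.05% of all genes. All 14 had a positive difference, against 51.2% of all genes, with a median of 0.33. Magea6, of a family of near-identical germ cell antigens, had 4.78, 5.87 and 6.25 in B6xBALB/C and 5.75, 6.25 and 6.65 in BALB/CxB6, against 4.69, 4.57 and 5.30 in B6, with replicate 6 of B6xBALB/C inside the range of B6. Its B6 values lay near or below 5.125, the mean below which genes were left out as dim. Its differences were 0.91 in B6xBALB/C (adjusted p = 0.0361) and 1.36 in BALB/CxB6 (adjusted p = 0.0153), and both calls were lost without B6 replicate 1 or 2 (0.0654 to 0.148), the first also without B6xBALB/C replicates 1 to 5 in turn (0.0513 to 0.081), the other without BALB/CxB6 replicate 2 (0.0649) or 3 (0.122). Without B6 replicate 2 the calls on Tktl1 (adjusted p = 0.0654) and Fmr1 (0.114) were lost, which left 1 call and a median of 0.209. There were 5 calls without BALB/CxB6 replicate 1 or B6xBALB/C replicate 6, and 13 of the 14 were positive without B6 replicate 1. In B6xBALB/C, Magea3 of the same family as Magea6 (0.74, adjusted p = 0.045) and Pbdc1 (0.53, adjusted p = 0.0254) also rose, calls lost without 8 and 5 of the arrays in turn, at 0.0502 to 0.149.

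X-linked genes that fell in B6xBALB/C were Rtl4, derived from a retrotransposon (-0.70), Nudt10 (-0.70), Itm2a (-0.64), the ubiquitin ligase Rnf128 (-0.62) and the kinase Nrk (-0.60), and their differences in BALB/CxB6 were -0.50, -0.38, -0.54, -0.20 and -0.65, of which that of Rtl4 passed the test. Against B6 in B6xBALB/C, the calls on Rtl4 and Rnf128 held without each array. Nudt10 was lost without B6 replicate 1 (adjusted p = 0.143) or 3 (0.0529), Itm2a without B6 replicate 1 (0.0849) or 2 (0.0716), and Nrk without each B6 array and B6xBALB/C replicates 1 to 5 in turn (0.053 to 0.157). In BALB/CxB6, biglycan (Bgn, -0.71), Cybb of the phagocyte oxidase (-0.70) and Armcx1 (-0.62) fell and Bex1 (0.88), Rhox13, a homeobox gene of germ cells (0.76), and 1700013H16Rik (0.75) rose, and all 6 calls were lost without B6 replicate 2 and without BALB/CxB6 replicate 2 or 3, at adjusted p of 0.0522 to 0.205. The 8 tested Y-linked genes were set against B6 in the mean of both F1s. Sry (0.16), Zfy1 (0.14), Zfy2 (0.13), Uty (-0.08), Kdm5d (-0.34), Eif2s3y (0.17) and Usp9y (0.37) did not pass there. Only 1 did, Uba1y, a ubiquitin-activating enzyme (0.46, adjusted p = 0.0486). Its call was lost without B6 replicate 1 or 2, BALB/CxB6 replicate 2 or 3 and 4 of the B6xBALB/C arrays, at 0.0616 to 0.214. This mean joins the BALB/C Y of B6xBALB/C with the B6 Y of BALB/CxB6, so it does not isolate the strain of the Y. In each direction alone, 0 Y-linked genes were called.

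Between the directions themselves, 65 genes passed the test (0.441%), 53 higher (0.359%) and 12 lower (0.0814%) in B6xBALB/C, and 2095 (14.2%) had an unadjusted p under 0.05. The 3 largest were in Tmbim7, Atp8b3 and Tdrd6. Tdrd6, a tudor protein of the chromatoid body, had 4.73, 6.85 and 7.04 in B6xBALB/C and 5.02, 4.27 and 4.71 in BALB/CxB6, against 5.77, 5.70 and 6.20 in B6, a difference between directions of 1.70 (SE 0.37, adjusted p = 0.0455). Its BALB/CxB6 values lay below 5.125, the mean below which genes were left out as dim. Atp8b3, a lipid transporter of the acrosome (1.81, adjusted p = 0.0483), and Tmbim7 (1.93, adjusted p = 0.0454) had the same order of group means. B6xBALB/C replicate 6 was with or below BALB/CxB6 for each, and B6 lay between the groups' means. Each of these 3 calls was lost without 9 or 10 of the 12 arrays in turn, at adjusted p of 0.0512 to 0.32. The number of genes was 1011 without B6xBALB/C replicate 6, 218 without replicate 4 and 1, 2, 3 or 4 without BALB/CxB6 replicate 3, BALB/CxB6 replicate 2, B6xBALB/C replicate 5 and B6xBALB/C replicate 1 or 2, and a fit that adjusts for the pachytene score gave 2. It was also 7 without B6xBALB/C replicate 3, 8 without BALB/CxB6 replicate 1 and 26, 36 and 40 without B6 replicates 2, 1 and 3.

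As a further cross within a subspecies, PWDxPWK males (2 arrays) can be set beside their inbred parent PWD (3 arrays), which shows how far a cross of another pair of strains departs from its own parent. PWDxPWK differed from PWD in 1 gene, Aldh7a1, an aldehyde dehydrogenase (0.00678%), beside 419 (2.84%) at an unadjusted p under 0.05, with 2 arrays against 3. The difference of the F1s from B6 and that of PWDxPWK from PWD were compared in the same model, and 9 genes had unequal differences (0.061%, 7 or 0.0475% higher and 2 or 0.0136% lower, with 845 or 5.73% at an unadjusted p under 0.05). Serpina3a had 2.50 in the F1s and -0.27 in PWDxPWK (difference of the differences 2.77, adjusted p = 1.04e-05). Plbd1 had 1.89 and 0.12 (1.77, adjusted p = 0.000225), Cd74 1.80 and -0.18 (1.98, adjusted p = 0.000325) and Vnn1 1.27 and -0.31 (1.58, adjusted p = 0.000225). Tap2 (0.98), Tap1 (0.86) and Fam181b (0.89) were also higher, and Oasl2 (-0.74) and Smyd1, a muscle lysine methyltransferase (-0.81), lower. Aldh7a1 and Fam181b are named after their values were seen. These largest changes of the B6 and BALB/C F1s had no counterpart of like size in PWDxPWK. The genes were chosen for large differences in these same arrays, which favours a smaller value in the other cross. For Cd74, Tap1 and Tap2 the PWD means (6.33, 8.37 and 8.43) were above those of B6 (5.35, 6.52 and 6.53). The differences in the 2 crosses thus did not start from the same level for them. The calls on Oasl2 and Smyd1 were lost without B6 replicate 1 (adjusted p = 0.06 and 0.109) or 3 (0.087 and 0.112), and that on Smyd1 also without B6xBALB/C replicate 3 (0.053), BALB/CxB6 replicate 1 (0.0533) or 2 (0.0541). Those on Serpina3a, Plbd1, Cd74, Vnn1 and Tap2 held without each array, and 17 genes were called without B6xBALB/C replicate 6. For the other genes named above, such as Stra8 (0.96, adjusted p = 0.159), Utf1 (0.81, adjusted p = 0.533) and B2m (-0.60, adjusted p = 0.495), the difference between the crosses did not pass the test.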

How the data were processed

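The 23 arrays were Affymetrix Mouse Gene 1.0 ST arrays of 7 genotypes, and 1 further PWDxPWK array had been left out by the submitters, per the series' design text. The deposited table holds log2 values of 25690 probe sets per array. The log base was taken from the values, which run from 1.17 to 13.96, with array medians of 6.13 to 6.28. How the background was corrected, how arrays were normalized or centred and with which software is not given in the sources used here. The number of arrays per group limits the precision.

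Probe sets were named from the platform annotation: 20777 carried a single symbol, 232 more than 1, and 4681 were unlisted, while 20696 matched the RefSeq gene table by Entrez ID. They gave 19661 genes. Where a gene had more than 1 probe set (564 genes), the brightest stood for it. The dimmest 25% of genes (mean below 5.125) were left out, which left 14745. All 23 arrays were fitted together, with a mean per genotype and 16 residual degrees of freedom (limma 3.58.1 in R 4.3.3, lmFit and eBayes, two-sided, Benjamini-Hochberg adjusted p under 0.05 over all genes tested). Tables and figures were made with Python 3.11.15 and matplotlib 3.10.9.

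The contrasts were the mean of both F1 group means minus B6, each F1 minus B6, B6xBALB/C minus BALB/CxB6, and the F1 difference minus that of PWDxPWK from PWD. A gene was alike in both directions if it passed the test in the mean and in each direction with the same sign. Genes are named by rule: the 12 largest rises and falls with separate arrays, the 5 largest X-linked changes each way in each direction, the 3 largest reciprocal differences and the 5 largest differences from PWDxPWK each way, up to 4 members per list of 28 gene lists (1 or 2 where none passed), all tested Y-linked and strain-variant genes, and runs of 3 neighbouring called genes. Neighbouring here means next to each other among the genes tested. The genotypes compared, the lists and the rule were chosen with earlier results of these data known. Lists are described by counts and medians, with no test of a list.

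The alternatives changed the filter, normalization, centring, probe sets, variances, array weights, arrays fitted and weighting of the F1s, added a replicate block, or left out arrays. On simulated data of the 14745 genes, the mean of both F1s was tested against B6 by the same fit. It found 68% of the 100 genes given a change of 0.5 and 95% of the 100 given a change of 1. Of its calls, 4.68% were false. The simulated noise was drawn separately for each gene and array, without variation shared across genes as in the leading component. These rates therefore need not hold for the real arrays. Replicate numbers were not taken to pair the arrays, though pairing was not excluded. Whether probes match B6 and BALB/C alleles equally was not tested.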

Additional observations from a re-analysis of the deposited data

Results flagged for a closer look

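Of 149 named genes and gene lists, 17 had 1 array of B6xBALB/C set apart from the other 5. The gap was a large part of the group's range (Dixon's test at the 95% level). Chance gives about 1 in 20 for unrelated items that were not chosen by their values. Many of these genes were named for their values in the same arrays, and genes and lists overlap, so the 17 are not separate results. Replicate 6 was that array in 13 of the 17. It was lowest for genes of meiosis and late germ cells, with log2 values of 9.64 for Meioc, 6.64 for Cdkn3, 6.04 for Atp8b3 and 4.78 for Magea6, and also for Entpd4 (8.58) and Ctss (5.34). It was highest for Plbd1 (8.16), Ret (8.1) and Insr (8.67). Relative to the 12 arrays, its mean level was lowest for recombination genes (-0.373) and spermatid genes (-0.234) and highest for Leydig cell genes (0.381) and for growth hormone and IGF genes (0.204). Replicate 4 was lowest for Chrdl1 (7.26) and Tek (5.64), replicate 3 highest for 1700013H16Rik (7.33) and replicate 1 lowest for Uty (7.49).

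The difference from the inbred parent was unequal between the B6 and BALB/C F1s and PWDxPWK, by the test of the difference itself, for Serpina3a (2.77), Cd74 (1.98), Plbd1 (1.77), Vnn1 (1.58), Tap2 (0.98), Tap1 (0.86), Smyd1 (-0.81) and Oasl2 (-0.74).

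The directions of the cross differed from each other, B6xBALB/C minus BALB/CxB6, for the autosomal genes Tmbim7 (1.93), Atp8b3 (1.81) and Tdrd6 (1.7) and for the X-linked genes Klhl4 (1.13), Col4a6 (0.69), Armcx1 (0.62), Rhox13 (-0.67), Chrdl1 (-0.69) and 4930595M18Rik (-0.79). These calls were not stable. Without BALB/CxB6 replicate 2 or 3, 0 genes were called higher in B6xBALB/C, so all the positive ones were lost. Rhox13 was lost without 8 arrays in turn (adjusted p 0.0538 to 0.333), Chrdl1 without BALB/CxB6 replicate 1 (0.0687) or 2 (0.056), and 4930595M18Rik without BALB/CxB6 replicate 3 (0.0615).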

How the results depend on the processing

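The numbers of called genes depended more on the arrays used than on the scaling. For the mean of both F1s (665), the count was 442 with array weights, 280 with the 3 groups fitted alone, 1713 with a replicate block on replicates 1 to 3, 1679 with B6xBALB/C replicates 1 to 3 only and 213 with replicates 4 to 6 only. The same settings gave 2181, 210, 2796, 2691 and 46 for B6xBALB/C (589), and 83, 44, 377, 367 and 26 for genes alike in both directions (142). The first 4 gave 111, 72, 755 and 732 for BALB/CxB6 (256). Between the directions (65) the same 5 settings gave 1618, 2, 1311, 1275 and 0. That count was also 21 with the dimmest 50% of genes left out, 33 with quantile normalization, 125 with centring on the autosomal median and 27 with trended and robust variances. Differences from PWDxPWK (9) numbered 22 with the replicate block and 21 with replicates 1 to 3 only, and the 3 groups fitted alone give no value for them. With the pachytene score as a covariate, an alternative chosen after seeing the data, the counts were 1535 for the mean, 243 for B6xBALB/C, 1491 for BALB/CxB6, 2 between the directions and 28 for the differences from PWDxPWK. Leaving out 1 array at a time gave 188 to 1337 genes for the mean, 144 to 2315 for B6xBALB/C, 31 to 643 for BALB/CxB6, 26 to 351 alike in both, 1 to 1011 between the directions and 8 to 17 for the differences from PWDxPWK. The fits with fewer arrays also test fewer samples, and otherwise the cause was not tested. Same-numbered arrays of the 3 groups correlated at -0.068 to 0.325 in their deviations from the group means, so the numbers are not taken to pair them, and the block keeps only B6xBALB/C replicates 1 to 3. Of 119 called gene results, 36 passed under all alternatives that tested them. Fv1, a retroviral restriction gene that did not pass, was at -0.1165, and at 0.0152 without B6 replicate 2 and -0.2584 without B6 replicate 1.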

Other observations

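In 5 places 3 genes next to each other on a chromosome, among the genes tested, were all called in the mean of the F1s. Genes that were too dim to test or not on the array can lie between them. With 4.51% of all genes called, the number of such runs expected by chance was not worked out. On chromosome 4 they were Nans (0.48), Trim14, a TRIM protein of antiviral signalling (-0.62), and Coro2a (0.34), and on chromosome 5 Chic2 (0.76), Pdgfra (-0.70) and Kit (-0.40), of which the last 2 are receptor tyrosine kinases. On chromosome 10 they were Phyhipl (0.49), Bicc1 (-0.38) and Tfam, the transcription factor of mitochondrial DNA (0.43), and on chromosome 2 Ptpra (-0.34), 4930473A02Rik (-0.38) and the mitochondrial ribosomal gene Mrps26 (0.44). The run on chromosome 13, H1f1 (0.64), H2bc1 (0.79) and H2ac1 (0.36), holds histone genes that may share probes, and it was the only one of the 5 with 1 sign. Without B6 replicate 1, each of the 5 runs lost at least 1 member. Coro2a and 4930473A02Rik were lost without 8 arrays in turn and Tfam without 9 (adjusted p 0.0513 to 0.244), Chic2 without B6 replicate 1 (0.15) or 2 (0.0726), and H2bc1 and H2ac1 without either of these (0.0897 to 0.178) or BALB/CxB6 replicate 2 or 3 (0.0534 to 0.0703).

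Stress genes of tissue dissociation had medians of opposite sign in the F1s, 0.09 in B6xBALB/C and -0.35 in BALB/CxB6 over 20 genes, and 0 of the 20 passed the test in the mean. Against B6, 1 was called higher in B6xBALB/C (1.82% of all genes) and 1 lower in BALB/CxB6 (0.692%). Between the directions 1 was called higher in B6xBALB/C (0.359%), and 18 of the 20 differences were positive against 42.3% of all genes. The mean level of the stress genes was highest in B6xBALB/C replicate 1 (0.408) and lowest in BALB/CxB6 replicate 3 (-0.676), against -0.152, 0.136 and 0.115 in B6. In the mean of the F1s, the lowest p was that of the chaperone gene Dnajb1 (0.38, adjusted p = 0.0622). Of 2 tested red blood cell genes, 0 passed, and the lower p was that of Alas2 (-0.31, adjusted p = 0.0748), the first enzyme of haem synthesis in red cells.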
